A study of Homo sapiens with 4 samples.

Results

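Of the 5408 clusters of poly(PR) crosslinking on chr1 to chr22 and chrX, 487 (9.01%) had their summit in no annotated gene on either strand. A cluster is a stretch of significant crosslinked positions in the list that the authors made from all libraries together, and its summit is the position with the most cDNAs, the leftmost in case of ties. A gene is any entry of GENCODE 44 on GRCh38, coding or not. Clusters on chr21 below 8.5 Mb were left out. A further 4504 clusters had their summit in a gene on the same strand and 374 only in a gene on the opposite strand. Counts chose the clusters and the gene models chose the members, so the number, the size and the detection of the members are described here without a test. P-values were kept to the sequence of the windows, which the choice of members did not use.

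The data come from HEK293T, a transformed human embryonic kidney line, transiently transfected with a plasmid for PR100-FLAG, a chain of proline-arginine repeats with a triple FLAG tag. Expression was induced with 150 ng/ml doxycycline for 24 h, cells were irradiated at 254 nm with 160 mJ/cm2, and protein-RNA complexes were purified with an anti-FLAG antibody. All 4 libraries belong to this single condition: complexes were run on SDS-PAGE in replicates 1 to 3 and cleaned up on beads alone in replicate 4, and the random barcode that marks each cDNA had 7 nt in replicates 1, 2 and 4 and 5 nt in replicate 3. Control libraries (FLAG alone, no UV) and GA100 libraries were not analysed here. Whether these clusters also form without poly(PR) was therefore not tested, and p-values measure only the spread between these 4 libraries.

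Poly(PR) is made from the expanded repeat of C9orf72, and its arginines give it a strong positive charge. Peptides of this kind are known to gather in the nucleolus, where RNA polymerase I transcribes the 45S precursor that is cut into the 18S, 28S and short RNA5-8S rRNA of the ribosome. The genome also carries many dispersed, decayed copies of rRNA, of mitochondrial rRNA and of small nuclear RNAs, part of which are annotated as pseudogenes, and some transcripts run past gene ends or start on the far side of promoters.

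The members fell into 6 sequence classes, which were defined after the windows had been seen. The window of 36 nt began 5 nt before the summit and ended 30 nt past it. In 42 members it held an uninterrupted run of at least 12 U, and in 4 others at least 4 CGG units in a row. In 166 others a stretch matched the 45S precursor, in 15 the mitochondrial chromosome and in 13 one of 13 abundant small RNAs. The remaining 247 (50.7%) showed none of these. A match was the best ungapped stretch, with 1 point for each identical base and 2 points taken off for each mismatch, and it needed at least 14 points.

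The sequences of a few members show what these classes look like. All run 5′ to 3′ on GRCh38, starting 10 nt before the summit and ending 35 nt past it, with T for U, and the matched rRNA is taken from the RefSeq 45S unit on chr21. In the first pair of members, capitals mark the matched stretch. Both are among the largest members with a stretch of at least 30 nt.
chr21:8988485-8988530, plus strand: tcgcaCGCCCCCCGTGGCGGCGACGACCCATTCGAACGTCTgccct
18S rRNA, summit at nt 324: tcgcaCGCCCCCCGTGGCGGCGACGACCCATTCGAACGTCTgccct
chrX:109054416-109054461, plus strand: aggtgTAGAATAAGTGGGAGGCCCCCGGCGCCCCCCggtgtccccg
28S rRNA, summit at nt 3961: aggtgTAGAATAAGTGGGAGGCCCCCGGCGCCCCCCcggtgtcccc

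Other members shared a shorter stretch or only a word with rRNA, close to the summit. Among those printed below, the ones on chr19, chr14 and chr20 matched over 29 nt and lay in RefSeq pseudogenes. The word TCAACAAG of 28S rRNA is in capitals in the next 4 members, which are among the largest that hold it.
chr13:81466615-81466660, plus strand: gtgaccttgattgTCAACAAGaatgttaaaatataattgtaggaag
chr1:233451598-233451643, plus strand: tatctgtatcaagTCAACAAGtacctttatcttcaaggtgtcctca
chr19:24003023-24003068, minus strand: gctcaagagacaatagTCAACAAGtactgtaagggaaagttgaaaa
chr11:97113105-97113150, plus strand: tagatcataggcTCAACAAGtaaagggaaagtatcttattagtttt
28S rRNA, summit at nt 351: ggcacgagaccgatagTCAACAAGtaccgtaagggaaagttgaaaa

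The word TGGGTTCC of 18S rRNA is in capitals in a second set, chosen in the same way.
chr4:175036476-175036521, minus strand: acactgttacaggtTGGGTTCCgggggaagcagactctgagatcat
chr14:16055714-16055759, plus strand: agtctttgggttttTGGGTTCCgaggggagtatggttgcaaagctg
chr2:42072708-42072753, minus strand: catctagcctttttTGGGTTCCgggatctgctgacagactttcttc
chr20:29298962-29299007, minus strand: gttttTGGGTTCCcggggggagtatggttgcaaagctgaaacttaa
18S rRNA, summit at nt 1160: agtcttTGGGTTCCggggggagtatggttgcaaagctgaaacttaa

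The other classes are shown by their largest members. Capitals mark the run of U, the first 4 CGG units, or the stretch that matched mitochondrial 16S rRNA and U2 snRNA, the part of the spliceosome that pairs with the branch point.
chr15:54926020-54926065, plus strand: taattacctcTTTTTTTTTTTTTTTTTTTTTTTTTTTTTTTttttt
chr7:118703751-118703796, plus strand: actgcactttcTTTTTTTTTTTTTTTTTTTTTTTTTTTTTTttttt
chr17:62065360-62065405, minus strand: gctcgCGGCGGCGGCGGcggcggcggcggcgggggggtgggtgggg
chr3:96617872-96617917, minus strand: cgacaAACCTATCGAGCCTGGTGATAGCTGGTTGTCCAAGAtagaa
mitochondrial chromosome, plus strand, summit at nt 1999: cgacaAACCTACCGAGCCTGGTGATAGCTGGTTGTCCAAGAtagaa
chr11:62841776-62841821, minus strand: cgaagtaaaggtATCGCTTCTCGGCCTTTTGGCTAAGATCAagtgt
RNU2-1, nt 1 to 34: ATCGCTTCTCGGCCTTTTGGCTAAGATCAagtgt

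The members together held 18986 cDNAs, 1.53% of the 1244203 cDNAs of the 4 libraries and 14.9% of those in clusters on these chromosomes. They took 0.880%, 1.95%, 2.01% and 0.952% of the cDNAs of replicates 1 to 4, or 1.45% ± 0.616 (SD, n = 4). Replicates 2 and 3 were thus high and replicates 1 and 4 low. The libraries held 334057, 604816, 125694 and 179636 cDNAs in replicates 1 to 4. Replicate 2 made up 48.6% of all cDNAs and 62.2% of the cDNAs of the members. Only 204 members kept 10 cDNAs, the smallest count of any cluster, without replicate 2. Counted once per crosslinked position, the share of the members fell to 0.640%.

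Most members were small and narrow. They held 17 cDNAs at the median and 10 to 1099 in all, and the 10 largest held 26.4% of the cDNAs of the members. The median width was 5 nt, against 72 nt for clusters in genes, and 255 members (52.4%) were at most 5 nt wide, against 11.3% of the clusters in genes. At the median, 54.1% of the cDNAs of a member lay at the summit itself, against 36.8% in genes. Clusters antisense to genes were as narrow: without a match their median width was 4 nt and their summit share 64.0%, and with a pre-rRNA match 5 nt and 58.7%. The surroundings were mostly empty. Around 333 members (68.4%) no cDNA lay elsewhere within 1 kb on the same strand, as around 16.7% of the clusters in genes.

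Detection was uneven between libraries. A cDNA was present in 364, 460, 278 and 304 of the 487 members in replicates 1 to 4. All 4 libraries gave cDNAs for 144 members (29.6%, 95% Wilson interval 25.7 to 33.8%, counting error only), 3 libraries for 166, 2 for 155 and only 1 for 22. Of the clusters in genes, 18.2% had cDNAs in all 4 libraries. In the lists of clusters that the authors called in each library alone, 61, 266, 75 and 39 members were found again in replicates 1 to 4. These are 12.5%, 54.6%, 15.4% and 8.01% of the members, against 7.19%, 27.4%, 8.44% and 7.08% of the clusters in genes. In none of these lists were 173 members (35.5%), against 63.2% of the clusters in genes. At least 90% of the cDNAs came from replicate 2 in 50 members, from replicate 3 in 19, and from replicates 1 and 4 in 1 and 2 members.

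The 15 largest members showed this unevenness clearly. They comprised 5 members that matched 45S rRNA, 5 without a match, 2 with a run of U, 2 that matched mitochondrial RNA and 1 with CGG units. Replicate 3 had no cDNA in 6 of them, while 10 had their highest level, in cDNAs scaled by the library total (CPM), in replicate 2.

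The class with a run of U held nearly all of its cDNAs in replicates 1 and 2. Its 42 members, on 17 chromosomes, held 1124, 2109, 64 and 1 cDNAs in replicates 1 to 4, or 38.2%, 17.9%, 2.53% and 0.0585% of the cDNAs of all members in the library. The largest member outside genes, at chr15:54926030, held 355, 744, 0 and 0 cDNAs and lay 130693 nt from the nearest gene. The member at chr7:118703761 held 279, 596, 0 and 1 cDNAs and lay 176342 nt from the nearest gene. Replicates 3 and 4 were thus at or near 0 in both. Of the 42 members, 34 had no cDNA in replicates 3 and 4, and none had cDNAs in all 4 libraries. In contrast, 3 smaller members of the class had at least 90% of their cDNAs in replicate 3. U runs antisense to genes held 418, 741, 9 and 4 cDNAs in replicates 1 to 4 and those in genes 577, 818, 186 and 7, so the low level in replicate 4 was not particular to the members. The 7 with at least 100 cDNAs held 900, 1727, 0 and 1 cDNAs in replicates 1 to 4. In 41 of the 42, the 20 bases after the summit occur at more than 1 place of the genome. The deposited files hold reads that mapped to a single place, and the part of mapping, library or reverse transcription in this class was not tested.

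Stretches like rRNA formed the largest class with a match. Of the 487 windows, 170 (34.9%) reached the score of 14 against the 45S precursor, 4 of which are counted in other classes. Against the reverse complement of the precursor, which has the same length, 22 windows (4.52%) reached it. In genes, 4.64% reached it in the sense direction and 1.71% against the reverse complement. Counted in each library over the clusters with at least 1 cDNA there, 35.2%, 36.7%, 44.6% and 44.1% of the members reached the score in replicates 1 to 4, and 4.75%, 4.80%, 6.86% and 4.62% of the clusters in genes. The mean difference was 34.9 percentage points ± 4.39 (SD, n = 4), higher outside genes in 4 of 4 libraries. The score was chosen after the windows had been seen and the libraries share most of the members, so this is a description with no test. Against clusters in introns alone, the difference was 21.7 percentage points. Clusters antisense to genes were closer to the members, with 30.2% in the sense direction and 5.08% against the reverse complement.

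The matches lay in the mature rRNAs. Of the 166 members in this class, 114 matched 28S rRNA, 47 matched 18S rRNA, 2 matched RNA5-8S rRNA and 3 the transcribed spacers, which make up 46.9% of the precursor. They held 591, 4677, 1034 and 1012 cDNAs in replicates 1 to 4, or 20.1%, 39.6%, 40.9% and 59.2% of the cDNAs of the members. This share was lowest in replicate 1 and highest in replicate 4. All 4 libraries gave cDNAs for 82 of the 166 members, against 49 of the 247 without a match. Members often shared rRNA positions: 105 of the 163 in mature rRNA lay within 10 nt of another one along the rRNA, at 32 places. Each place held members of different chromosomes, and some also held several of the same chromosome. The share that an even spread along the rRNA would give was not computed. The place shared by most was nt 351 to 370 of 28S rRNA with 11 members on 7 chromosomes, followed by nt 1148 to 1161 of 18S rRNA with 10 members on 8 chromosomes.

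The matched stretches were grouped by where they began. In 74 members the stretch began upstream of the summit and had a median length of 36 nt, the whole window. Of these, 50 had another member within 10 kb and 31 lay in a pseudogene of the RefSeq annotation. In 81 members the stretch began at the summit or up to 4 nt after it and had a median length of 17 nt. Of these, 10 had another member within 10 kb, and 61 had no other cDNA within 1 kb on the same strand. Thus 48.8% of the matches began within a few bases of the first base that a cDNA at the summit would cover. The same was true of 59.8% of the 189 matches in genes. The 11 remaining stretches began 5 nt or more after the summit.

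The largest member with a match, at chr21:8988495, held 34, 979, 12 and 67 cDNAs in replicates 1 to 4 and was far higher in replicate 2 than in the others. The 36 nt of its window are identical to 18S rRNA around nt 324, as printed above. It lay 1065 nt downstream of the end of a microRNA gene. The member at chr7:69062479, aligned with nt 3735 of 28S rRNA, held 31, 190, 23 and 70 cDNAs and was 150 nt wide. The member at chrX:109054426, aligned with nt 3961, held 24, 111, 112 and 36 cDNAs. It was highest in replicate 3 by CPM, with 891 against 71.8, 184 and 200. The member at chr2:78701810, aligned with nt 4085, held 10, 103, 115 and 6 cDNAs, and also stood highest in replicate 3 by CPM. The member at chr3:108531463, aligned with nt 2791, held 14, 123, 4 and 43 cDNAs and lay 2141 nt upstream of MYH15, a myosin heavy chain gene, on the opposite strand.

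Short words of rRNA also recurred in members without a match. With the U runs left out, 16 words of 8 bases were present in the windows of at least 10 members each, and 15 of the 16 occur in mature rRNA. They were picked by this count, so it is a description only. Most of the words overlap one another. The overlapping words found in rRNA begin at nt 355 to 361 and 371 to 372 of 28S rRNA and at nt 1154 to 1159 of 18S rRNA. These words thus stand for only a few stretches. Apart from them, GGCGGGGG occurs at 6 places of mature rRNA, first at nt 641 of 28S rRNA. It was in 13 members and 13 clusters in genes, and its reverse complement in 1 member and 13 clusters in genes. In all, 70 members (14.4%) held at least 1 of the 16 words, 39 of which had no match, against 98 clusters in genes (2.18%). TCAACAAG was in 22 members on 14 chromosomes and in 16 clusters in genes (0.355%), and its reverse complement was in 1 member. It began 2 to 6 nt after the summit in all 22. These 22 members held 122, 733, 2 and 45 cDNAs in replicates 1 to 4, so that replicate 3 was nearly empty. TGGGTTCC was in 15 members on 12 chromosomes and in 0.289% of the clusters in genes, and began at a median of 4 nt after the summit. Its members held 47, 648, 162 and 32 cDNAs and were present in replicate 3.

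The largest member without a match, at chr11:15824734, held 45, 285, 0 and 16 cDNAs and lay 39718 nt from the nearest gene. It carried ACAAGTAC, one of these words. The member at chr13:81466625, with TCAACAAG, held 31, 206, 0 and 16 cDNAs, of which 92.9% lay at the summit. At chr8:63220615 the counts were 28, 143, 0 and 8, and at chr8:125390955 they were 7, 145, 10 and 8. All of these were highest in replicate 2.

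As a class, the 247 members without a match held 969, 3842, 1333 and 481 cDNAs in replicates 1 to 4, or 36.6% ± 11.0 (SD, n = 4) of the cDNAs of the members. They were 4 nt wide at the median and had 60.0% of their cDNAs at the summit. No other cDNA lay within 1 kb on the same strand of 191 of them (77.3%). They also made up 36 of the 50 members with nearly all cDNAs in replicate 2 and 15 of the 19 in replicate 3. The largest of the latter, chosen after its values were seen, was at chr21:46615072 with 0, 0, 109 and 1 cDNAs.

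In contrast to the other large members without a match, the one at chr18:78703435 held 24, 41, 142 and 13 cDNAs and was highest in replicate 3. Its window holds CGGAAGAGC, 9 bases that also occur in a common sequencing adaptor, from 2 nt after the summit. The same 9 bases stood at the same distance in the member at chr9:746341, with 7, 39, 35 and 1 cDNAs, and in no other member. Of the 4504 clusters in genes, 3 held them anywhere in the window. Both members were highest in replicate 3, with 1129.7 and 278 CPM. Their windows, with these bases in capitals, were as follows, and the part of adaptor sequence in them was not tested.
chr18:78703400-78703445, minus strand: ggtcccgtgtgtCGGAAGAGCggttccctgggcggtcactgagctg
chr9:746306-746351, minus strand: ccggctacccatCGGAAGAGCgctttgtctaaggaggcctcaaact

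**Figure D1:**
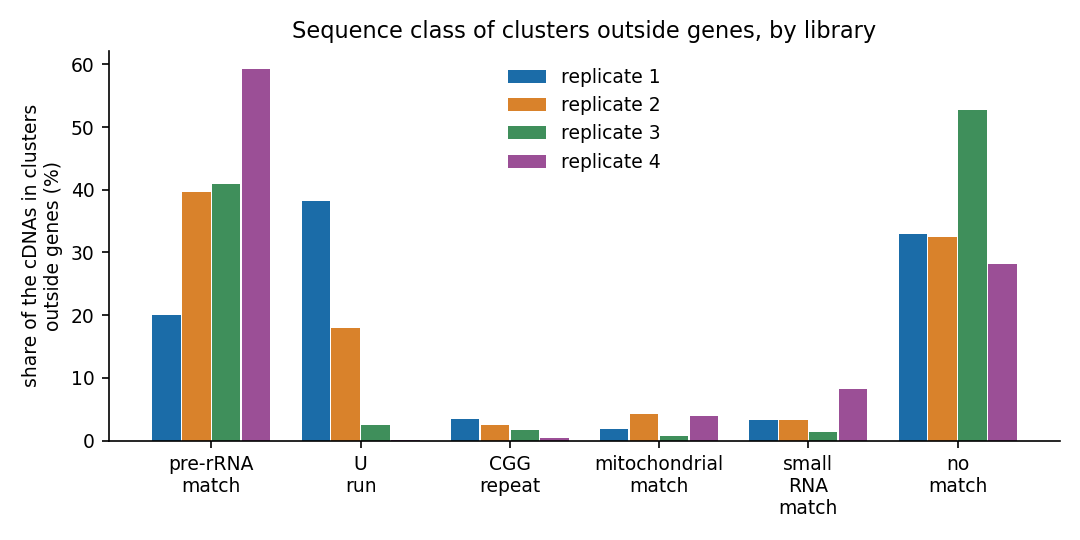
Share of the cDNAs in clusters outside genes (percent, within each library) that fell in each of the 6 sequence classes; each bar is 1 library. The U runs reach 38.2% in replicate 1 and 0.0585% in replicate 4, while matches to pre-rRNA go from 20.1% in replicate 1 to 59.2% in replicate 4.

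Of the 15 members that matched mitochondrial RNA, 7 lay in a RefSeq pseudogene. The member at chr3:96617907, in the RefSeq pseudogene MTRNR2L12, a nuclear copy of mitochondrial 16S rRNA, held 30, 126, 5 and 20 cDNAs. The member at chr4:155975956 matched mitochondrial RNA over 29 nt and held 4, 167, 0 and 6 cDNAs, nearly all in replicate 2. Against the reverse complement of the mitochondrial chromosome, 2 members reached the score, compared with 15 in the sense direction. Of the 13 members that matched small RNAs, 6 matched 5S rRNA, 2 each matched the spliceosomal U1, U2 and U5 snRNAs, and 1 matched RMRP, the RNA of RNase MRP. At chr11:62841811, printed above with U2 snRNA, the counts were 27, 103, 1 and 29. This summit lay 2 nt upstream of the starts of RNU2-2P, a U2 gene, and WDR74, and the cluster was 179 nt wide.

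Such cases mark the edge of the rule. Of the 25 members within 100 nt of a gene, 10 matched a small RNA and 19 lay upstream of a gene start on the same strand. In 9 members the summit was 1 or 2 nt upstream of a gene start on the same strand, in 3 of them 1 nt upstream, the position that a cDNA beginning at the first base of the RNA is assigned to, and in 6 of them 2 nt upstream. The members nearest to a gene were chr15:65304676 at RNU5B-1 with 31 cDNAs, chr1:44731171 at RNU5D-1 with 19 and chr5:155845436 at the 5S pseudogene RNA5SP199 with 18, each 1 nt outside. Just inside a gene, and so left out, were clusters at chr11:809965 with 18 cDNAs at 1 nt from the boundary and at chr1:145465779 and chr1:145281117 with 99 and 46 cDNAs at 2 nt. Both clusters on chr1 also matched a small RNA.

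The CGG class comprised 4 members with 102, 293, 44 and 8 cDNAs in replicates 1 to 4. Those at chr17:62065395 and chr20:38724456 also matched 28S rRNA, with scores of 29 and 28, and the reverse complement of the precursor, with 20 and 18. They are in this class because CGG units were looked for first. At chr17:62065395 the counts were 85, 180, 34 and 5. The CPM were 254, 298, 270 and 27.8, so that replicate 4 stood below the other libraries. The summit lay 117 nt upstream of MED13, a subunit of the Mediator kinase module, on the same strand, and 103 nt downstream of a non-coding gene. At chr20:38724456 the counts were 16, 100, 1 and 3, and the summit lay 30 nt upstream of SLC32A1, the vesicular transporter of GABA, on the opposite strand.

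The base composition of the windows differed from that of all clusters in genes, chiefly through U, but was close to that of clusters in introns. Over the 36-nt windows, members held 29.9% U and 48.2% A or G, and clusters in genes 23.3% U and 54.0% A or G. Clusters in introns held 29.5% U and 48.9% A or G, so the high share of U was not particular to the members. Weighted by cDNAs, the purine share of the members was 34.1%, 43.5%, 53.9% and 52.6% in replicates 1 to 4, against 53.7%, 54.9%, 52.1% and 58.4% in genes. Replicates 1 and 2 were thus low, and replicate 3 was above the clusters in genes. The mean difference, members minus clusters in genes, was -8.74 percentage points ± 9.02 (SD, n = 4), lower in 3 of 4 libraries (exact permutation of signs, two-sided, p = 0.25). Without windows holding a U run it was -2.49 percentage points, and against clusters in introns it was -2.43. The weighted difference was not larger than the spread between libraries. With each cluster counted once it was -4.59 percentage points, and with cDNA weights over 50 nt on each side of the summit -6.26, both lower in 4 of 4 libraries (exact permutation of signs, two-sided, p = 0.125 for each).

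**Figure D2:**
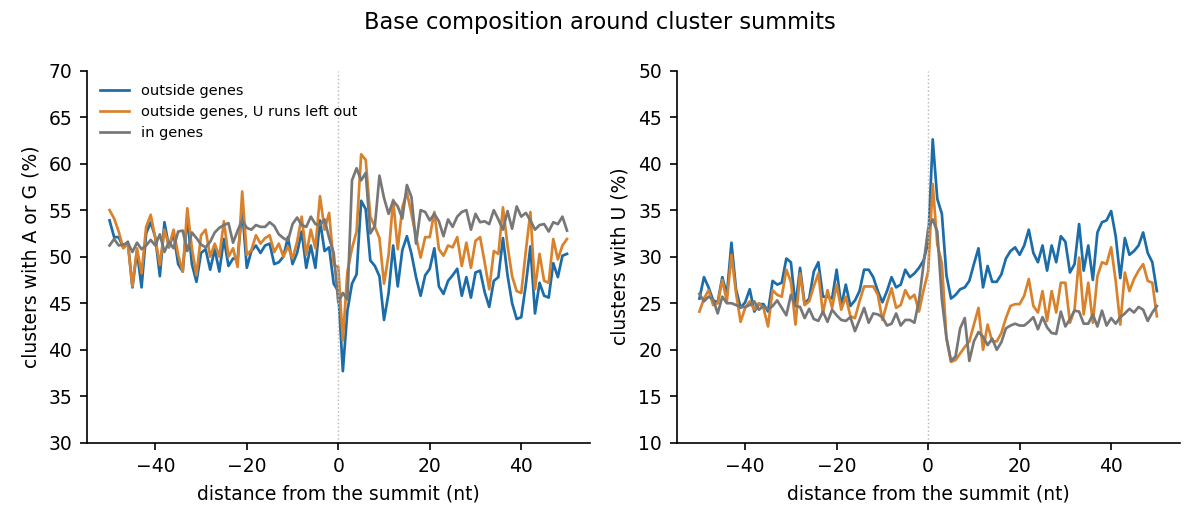
Share of clusters with A or G (left) and with U (right) at each distance from the summit, in nt, for clusters outside genes (n = 487), the same without U runs (n = 445) and clusters in genes (n = 4504); the dotted line marks the summit. All sets peak in U 1 nt after the summit, at 42.6% outside genes and 34.0% in genes, and over 1 to 30 nt downstream U averages 30.1% outside genes, 24.2% without the U runs and 22.7% in genes.

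The purine-rich pentamer GAAGA was rarer outside genes. The study picked it as the most enriched pentamer at the significant crosslinking sites of its PR100 data, which include these libraries. Most clusters lie in genes, so a lower share outside genes is partly built in, and the test below is not independent support. It was in the window of 3.57%, 3.91%, 4.68% and 3.62% of the members with a cDNA in replicates 1 to 4, against 12.3% (replicate 3) to 19.3% (replicate 4) of the clusters in genes. The mean difference was -12.7 percentage points ± 3.56 (SD, n = 4), lower outside genes in 4 of 4 libraries (exact permutation of signs, two-sided, p = 0.125, the lowest value that 4 libraries allow). The libraries share most of the clusters counted. Against clusters in introns, of which 5.16% held GAAGA, the difference was -1.51 percentage points. GAAGA or its forms with G or C as the middle base stood in 11.1% of the members, 24.2% of the clusters in genes and 12.4% of those in introns. The form with G was in 25 members (5.13%) and the form with C in 11 (2.26%). AUAAU, another motif of the study, was in 10 members (2.05%) and 2.18% of the clusters in genes. Among members without a match, 4.05% held GAAGA.

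Relative to genes, members were more frequent near gene ends and promoters than the bases outside genes, but cDNAs outside clusters showed much of the same. Of the 487 members, 102 (20.9%, 95% Wilson interval 17.6 to 24.8%) lay within 10 kb downstream of a gene end on the same strand. This stretch holds 11.1% of the bases outside genes, counted on both strands, and 23.5% of the 137459 cDNAs outside genes and clusters. The members were thus not more concentrated there than single cDNAs. Protein-coding genes alone accounted for 39 of the 102. The median distance from the gene end was 2844 nt, and 19 members lay within 1 kb. The interval takes members as independent, although some of these lie in groups of neighbours.

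Among the largest of these downstream members, after chr21:8988495, chr17:62065395 and chr8:63220615, were chr4:175036511 with 8, 116, 36 and 1 cDNAs, at 1569 nt from a non-coding gene, and chr1:107570869 with 23, 80, 0 and 47 cDNAs. The latter lay 292 nt past the end of VAV3, a guanine nucleotide exchange factor, and matched 28S rRNA over its stretch at nt 2386. Of all 102 downstream members, 35 matched pre-rRNA and 55 had no match.

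On the far side of promoters, 39 members (8.01%, 95% Wilson interval 5.91 to 10.8%) lay within 3 kb upstream of a gene start on the opposite strand, where 3.56% of the bases and 6.86% of the cDNAs outside genes and clusters lie. Besides members already named near MYH15, in MTRNR2L12 and near SLC32A1, the largest were chr1:233451608 with 8, 61, 0 and 7 cDNAs, printed above with TCAACAAG, and chr16:34160780 with 6, 38, 13 and 2 cDNAs, 744 nt from LINC00273. Replicate 2 was highest in both by count, but by CPM chr16:34160780 was highest in replicate 3, with 103 against 62.8 in replicate 2. On the same strand, 75 members (15.4%) lay within 3 kb upstream of a gene start, against 3.56% of the bases and 8.01% of the cDNAs. Among members without a match this share was 9.72%. Of the 50 members of this kind not counted in the previous 2 stretches, 28 matched pre-rRNA and 10 had no match. The 28 include all 8 members of a group on chrX that spans 387 nt beside a single microRNA gene.

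**Figure D3:**
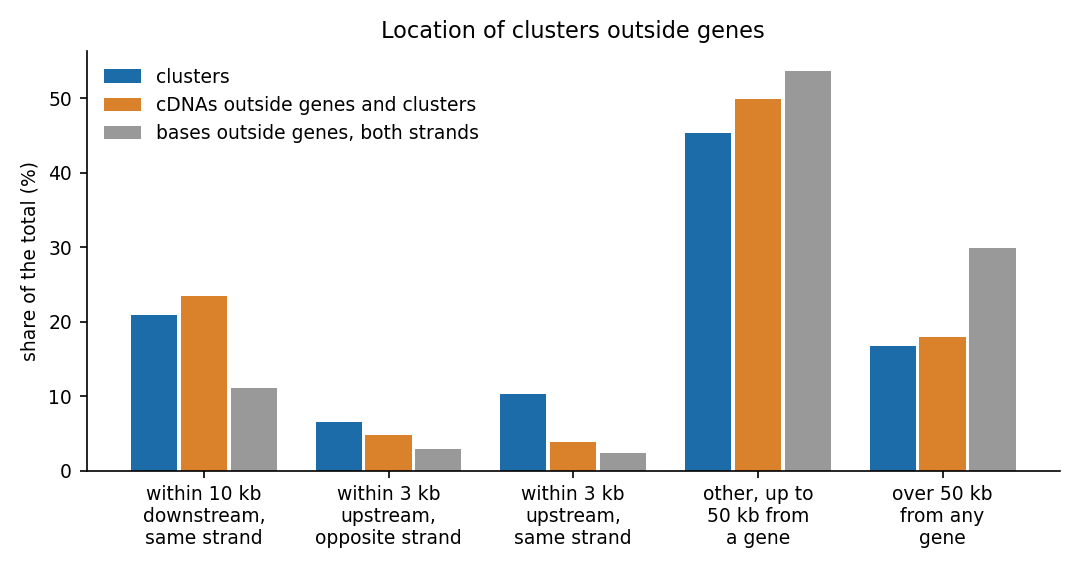
Share of clusters outside genes, of cDNAs outside genes and clusters, and of the bases outside genes on both strands (percent) in 5 stretches, each item counted in the first that holds it from left to right. Clusters exceed bases in the 3 stretches next to genes, and exceed cDNAs chiefly upstream on the same strand, with 10.3% against 3.79%. Of the 50 clusters in that stretch, 28 matched pre-rRNA, and several of these are neighbours in the same rRNA copy.

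Farther away, the nearest gene on either strand lay at a median of 9220.0 nt and at most 319919 nt. More than 50 kb from any gene lay 82 members (16.8%), with 29.9% of the bases outside genes and 24773 of the 137459 cDNAs outside genes and clusters. The 5 largest of these were the U runs on chr15 and chr7 and the members on chr13, chr2 and chr18 described above. Thus the members farthest from genes included 5 of the 10 largest of all.

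Few members had close neighbours, and those that did were mostly copies of rRNA. Only 74 (15.2%, 95% Wilson interval 12.3 to 18.7%) had another member within 10 kb on the same strand, against 50.7% of the clusters in genes. They formed 15 groups, and 61 of the 74 matched pre-rRNA. The interval takes members as independent, which neighbours are not, so it is too narrow. Among members without a match alone, the share with such a neighbour was 2.43%. Of the 15 groups, 8 had at least 5 members each, with 55 members in all.

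The group with most members was on chr2, with 9 members over 2955 nt at chr2:132278710-132281665. All 9 matched 28S rRNA, 7 lay in the RefSeq pseudogene RNA28SP, and the group held 27, 129, 38 and 53 cDNAs in replicates 1 to 4. On chrX, 8 members within 387 nt at chrX:109054144-109054531 matched 28S rRNA and held 55, 201, 138 and 75 cDNAs. On chr19, 7 members at chr19:24000911-24004509, around the pseudogene RNA5-8SP4, matched 28S or RNA5-8S rRNA and held 34, 191, 36 and 45 cDNAs. Each of these groups had cDNAs in all libraries.

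On chr22, 6 members within 593 nt at chr22:11629870-11630463 lay in the RefSeq pseudogene RNA18SP, matched 18S rRNA and held 22, 285, 30 and 12 cDNAs. The first of them, at chr22:11629870 with 2, 134, 2 and 4 cDNAs, aligned with nt 324 of 18S rRNA, as did the largest member on chr21. On chr20 there were 2 such groups. The group at chr20:30512091-30514658 held 6 members with 28S rRNA and 37, 144, 89 and 75 cDNAs, and the group at chr20:29298675-29300011 held 6 members with 18S rRNA and 12, 119, 25 and 18 cDNAs. On chr3, 5 members at chr3:96617535-96618083 matched mitochondrial RNA and held 37, 196, 8 and 23 cDNAs.

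Only 1 of the 8 groups was mostly without a match. It held 8 members over 5537 nt at chr21:8988495-8994032, with 105, 1018, 27 and 76 cDNAs. Of these, 2 matched 18S rRNA and 6 had no match to mature or spacer sequence. Apart from the largest member, the group held 51 cDNAs or fewer per cluster. At chr21:8990439, the second largest, the counts were 34, 7, 9 and 1, and the level was highest in replicate 1.

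Along the chromosomes the members numbered 0.427 per Mb outside genes. The values were highest on chr19, chr20, chr22 and chr21, with 0.909, 0.896, 0.818 and 0.796 per Mb, and lowest on chr18 and chr13, with 0.186 and 0.209. Counting each group of neighbours once, chr20, chr22 and chr21 had 0.430, 0.477 and 0.368 per Mb, chr19 had 0.588, and chr17, with no groups, had 0.673.

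Other annotation covered part of the members. In the RefSeq table, which gives no strand, 114 members (23.4%) lay in a gene: 47 in pseudogenes, 32 in long non-coding RNAs, 24 in protein-coding genes, 8 in tRNA genes and 3 in other loci. Of the 47 in pseudogenes, 40 matched pre-rRNA and 7 mitochondrial RNA. The 12 members within 50 nt of a RefSeq tRNA gene held 24, 64, 9 and 57 cDNAs in replicates 1 to 4, with 10 to 20 each. They had no match to the other RNAs, and were wider than most members, with a median of 46 nt.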

How the data were processed

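iiCLIP libraries of 4 crosslinked PR100-FLAG samples were analysed. The authors demultiplexed the reads, collapsed PCR copies by the random barcode, mapped with STAR to GRCh38 with GENCODE 27, allowing 2 mismatches, kept reads that mapped to a single place and took the nucleotide before each read as crosslinked. The deposited values are counts of unique cDNAs per position, not normalised, and counts per cluster of significant positions (iCount, false discovery rate below 0.05). Neither the STAR version nor the joining distance of positions is given in the sources used here. A read from a repeated RNA can be placed at 1 copy that fits best, which bears on counts at copies of rRNA.

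The pooled positions were checked to be the sum of the 4 libraries at all 784115 positions, and the sum of positions matched the count of all 5408 clusters. Summits were placed with GENCODE 44 (62062 genes on chr1 to chr22 and chrX) and RefSeq tables of the same build. Distances run from the summit to gene ends and starts, and backgrounds are all bases outside genes on both strands and the cDNAs outside genes and clusters. Windows were scored against the RefSeq 45S unit of chr21, the mitochondrial chromosome and 13 GENCODE small RNAs. Words and pentamers were searched on the strand of the cluster, and words may overlap. Means and SD are over libraries, and differences in base composition and in pentamers, taken within each library, were tested by exact two-sided permutation of their signs. CPM are cDNAs scaled by the total of the library. A library has 125694 to 604816 cDNAs, so a member at 10 cDNAs is often at 0 or 1 in the smaller ones, and intervals cover counting error only. The intervals take members as independent, so they are too narrow where members lie in groups of neighbours.

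The members and lists were chosen with earlier results of these data known. Named members were the 15 largest, the 5 largest downstream, divergent and over 50 kb from genes, groups of at least 5, and the 3 nearest to a gene boundary on either side. Classes, words and scores were chosen after the windows had been seen. Scoring, distances and the test were tested on simulated data. Tools were pysam 0.24.0, numba 0.67.0, pandas 2.3.3, numpy 2.4.6, scipy 1.17.1 and matplotlib 3.10.9 under Python 3.11.15.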

Additional observations from a re-analysis of the deposited data

Results flagged for a closer look

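In 42 measures with a value in each of the 4 libraries, 1 library stood apart in 6 cases, its gap to the nearest of the others over the whole range being above the 95% critical value of Dixon's test. Chance gives about 1 in 20 for normally spread values that were not chosen by their counts. Of the 42 measures, 20 were the CPM of members picked for their high pooled counts. That rate does not hold for them, and the flags are a description only. No explanation was tested.

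The share of clusters in genes that reached the pre-rRNA score was 6.86% in replicate 3 and 4.62% to 4.80% in the others, a gap of 0.920 of the range. In CPM, the member at chr18:78703435 with the adaptor-like bases had 1129.7 in replicate 3 and 67.8 to 72.4 in the others (0.996 of the range). The member at chrX:109054426, like 28S rRNA, had 891 in replicate 3 and 71.8 to 200 in the others (0.843), and that at chr2:78701810, also like 28S rRNA, 915 and 29.9 to 170 (0.841). Replicate 2 stood apart at chr4:155975956, like mitochondrial RNA, with 276 against 0 to 33.4 (0.879). Replicate 4 stood apart at chr17:62065395, the largest CGG member, with 27.8 against 254 to 298 (0.840).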

How the results depend on the processing

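Over 11 results, 84 values were computed under other settings, of which 68 were counted as the same, 16 moved beyond their margin and 0 reversed. For the differences in purines, GAAGA and pre-rRNA matches no margin was set, and a value counted as the same if its sign held. Against clusters in introns, purines went from -8.74 to -2.43 percentage points and GAAGA from -12.7 to -1.51, and both counted as the same. Of the 84, 25 were added after the data had been seen. The number of members was 208 with at least 20 cDNAs, and 204 (without replicate 2) to 431 (without replicate 4) kept at least 10 cDNAs when 1 library was left out; 373 lay in no gene of either annotation. The share of cDNAs was 0.640% with each position counted once. The share of members in all libraries was 30.2% to 46.6% when 1 library was left out, 13.1% with at least 2 cDNAs in each and 19.8% among members without a match. The downstream share was 14.6% at 5 kb, 28.7% at 20 kb and 8.01% with protein-coding genes. The opposite-strand upstream share was 3.70% at 1 kb, 10.9% at 5 kb and 4.72% with protein-coding genes. Among members without a match, 2.43% had a neighbour and the median summit share was 60.0%. Leaving out 1 library gave -12.3 to -5.13 percentage points for purines, -14.4 to -11.7 for GAAGA and 33.4 to 36.4 for pre-rRNA matches, and scores of 12 and 20 gave 41.0 and 24.1. Apart from the settings that change a distance, a minimum or the members counted by their construction, the cause of a change was not tested. Comparisons of repeat shares and outside soft-masked sequence were not run, because the genome used here is not soft-masked. Differences were taken within each library, and a single condition leaves no other pairing to try.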
